A study of Mus musculus with 4 samples.

Results

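Anti-PD1 treatment was compared with no treatment in wild-type (WT) mice that carried GL261 tumours in the brain. GL261 is a mouse glioma line and serves as a model of glioblastoma. The untreated WT mice were sorted on day 20 after tumour injection. The treated WT mice received anti-PD1 into the peritoneum, 200 ug per mouse on days 7, 11, 15 and 19, and were sorted on day 25. Live CD45.2+ immune cells were taken from pooled brain suspensions in both groups. The labels give brain as the tissue and brains as what was harvested, while their sort step speaks of lung cells, and brain is used here. For the treated mice the labels state that CD3+ and CD3- cells were mixed at equal parts. Ages, a control antibody and the number of mice per pool are not given in the sources used here. Each group was 1 single-cell RNA library, so treatment, day, cell mixing and kind of library cannot be told apart, and no difference below has a replicate check or a p-value. The same contrast in IFNaR-/- mice, without a type I interferon receptor, is set beside it for the same genes.

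A barcode was kept where it showed 200 or more genes and no more than 10% mitochondrial UMIs, where a UMI is 1 counted RNA molecule. This left 14726 cells of the 2 WT libraries out of 26010 kept in the 4 libraries of the study. Of these, 5262 were untreated and 9464 came from treated mice. Marker UMIs placed 9888 of them in lineages, and the comparisons were made within 5 of these: CD8 T cells, conventional CD4 T cells, regulatory T cells, microglia and monocyte/macrophage cells.

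PD-1, encoded by Pdcd1, is an inhibitory receptor that activated T cells display. Its ligands PD-L1 (Cd274) and PD-L2 (Pdcd1lg2) sit mainly on myeloid and tumour cells, and an anti-PD1 antibody blocks their contact. In the tumour-bearing brain the myeloid cells are resident microglia and monocytes that enter from the blood and mature into macrophages. Type I interferon acts on all of these cells and switches on a shared set of antiviral genes, the interferon-stimulated genes.

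The libraries held 6662 barcodes with 48270410 UMIs (untreated) and 9530 barcodes with 94732545 UMIs (anti-PD1), and they shared no barcode. Kept cells had a median of 7301 and 8773 UMIs. The mitochondrial limit removed 21.0% of untreated and 0.693% of anti-PD1 barcodes. Against the labels, which give 1 kit for all libraries, UMIs of T cell receptor beta variable segments per UMI of the constant segments came to 0.00919 in the untreated and 3.22 in the anti-PD1 library. The IFNaR-/- pair also differs in day, mixing and library, but not to the same extent: there this ratio was 0.0101 and 0.0681, and values of the pairs set side by side carry that difference too. The nuclear RNA Malat1 made up 2.89% and 0.315% of UMIs. Genes with the longest introns had a higher median log2 ratio than those with the shortest in 4 of the 5 lineages, for example 0.69 against -0.04 in CD8 T cells (1.19 against -0.35 in the IFNaR-/- pair), and the exception was the regulatory T cells (0.12 against 0.12). The part of these library differences in single gene values was not tested.

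The makeup of the cells differed between the libraries. T cells were 33.5% of gated cells (1212 of 3623) in the untreated and 6.62% (415 of 6265) in the anti-PD1 library. The anti-PD1 share stands below the equal parts of CD3+ and CD3- cells that the labels give, and T cells with mixed T and myeloid barcodes together made up 8.24% of its kept cells. Natural killer cells numbered 191 in the untreated library. None of 5850 gated non-T cells passed that gate in the anti-PD1 library, where 3 counts would be a share of 0.0513% and the exact 95% upper limit is 0.0630%. B cells went from 56 to 1 cell, neutrophils from 70 to 2, and mast cells or basophils from 57 to 2. Cells in no gate were 28.5% and 29.9% of kept cells.

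Within the T cells the shares lay close together. CD8 T cells made up 48.2% of untreated T cells (95% exact binomial interval 45.3 to 51.0) and 48.2% of anti-PD1 T cells (43.3 to 53.1), and the interval of the difference ran from -5.66 to 5.70 percentage points. Conventional CD4 T cells were 24.9% and 27.5%, and regulatory T cells, which carry the transcription factor Foxp3, were 8.58% and 10.8%. The intervals of these differences, -2.39 to 7.72 and -1.04 to 5.98 points, also included 0. All intervals and floors in this text cover counting error only, not the spread between mice or libraries.

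Among gated cells other than T cells, monocyte/macrophage cells were 58.3% of the untreated (1406 of 2411) and 70.9% of the anti-PD1 library (4148 of 5850). Within them the balance of monocyte and macrophage markers was turned around. Cells with more UMIs of the monocyte genes Ly6c2, Ccr2 and Plac8 than of the complement genes C1qa, C1qb and C1qc, here called the monocyte side, made up 69.9% (95% interval 67.4 to 72.3) in the untreated and 29.6% (28.2 to 31.0) in the anti-PD1 library. The split is a range and not a cell type, and 4.69% and 2.80% of the cells lay within 2 UMIs of it. Microglia were 15.6% and 25.1% of non-T cells. With every cell thinned to 1000 UMIs before gating, microglia came to 26.8% and 22%, the opposite order, while the monocyte/macrophage difference was larger, at 34.4% and 75.0%. No direction is therefore read for microglia. After thinning, 1045 untreated and 2248 anti-PD1 non-T cells were gated, and 360 and 1687 of them were monocyte/macrophage cells. The part of marker level per cell in the larger difference was not tested.

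**Figure D1:**
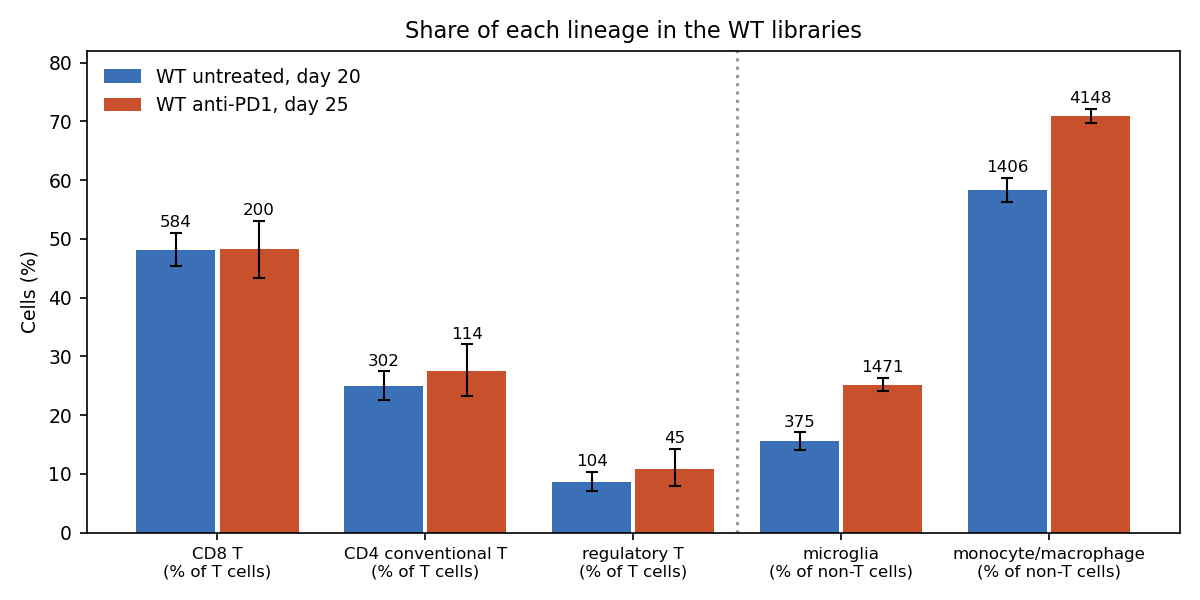
Share of cells in each lineage (y axis, percent) in the untreated (blue) and anti-PD1 (red) WT libraries, with T lineages as a share of gated T cells and the myeloid lineages as a share of gated cells other than T; bars give 1 library each, error bars are 95% exact binomial intervals, and the number of cells stands above each bar. The CD8 T bars are level at 48.2% and 48.2%, and the monocyte/macrophage bars stand at 58.3% and 70.9%.

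Dendritic cells were not compared. The anti-PD1 barcodes in the plasmacytoid gate numbered 35 and carried 137064 macrophage UMIs per 1000000, against 12497 in the untreated ones, so the gate was not taken to hold like cells in both libraries. The cDC1 gate held 32 untreated cells, under the 50 needed. The migratory dendritic gate held 150 untreated and 95 anti-PD1 cells, above that number, and was also left out here.

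For each lineage the UMIs of all its cells were summed and given per 1000000 UMIs of the lineage (CPM). A gene was measured where the pair held at least 50 UMIs of it, and it was counted as higher or lower where the summed levels differed at least 2-fold. Gene lists, each of genes with a shared role, are described by those counts and by the median log2 ratio (anti-PD1/untreated) of their measured members, beside the same over all measured genes. Where a pair of values is given, the untreated library comes first and the anti-PD1 library second. The plot of list medians shows that the lists did not stand alike in all lineages: the interferon-stimulated list was lowest in monocyte/macrophage cells and above 0 in CD8 and regulatory T cells, and the antigen presentation and glycolysis lists were above 0 in both myeloid lineages.

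**Figure D2:**
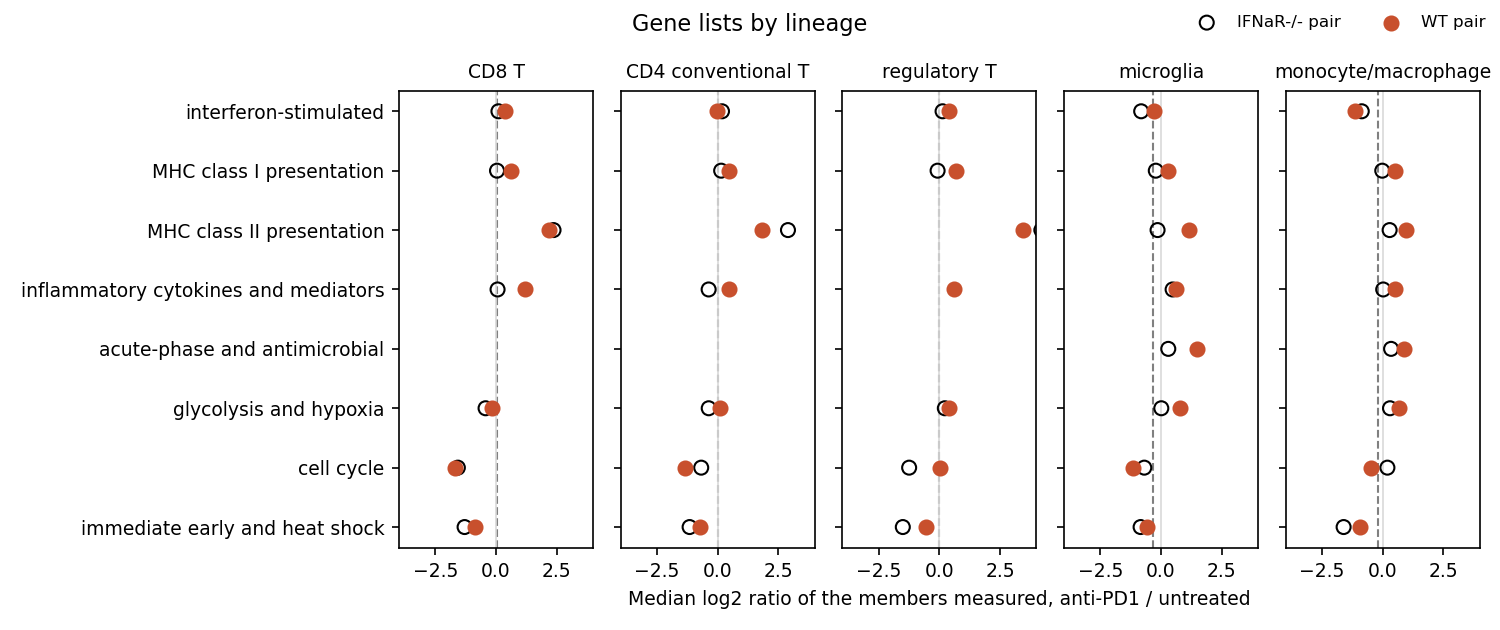
Median log2 ratio (x axis, anti-PD1/untreated) of the measured members of 8 gene lists (rows) in each of the 5 lineages (panels), for the WT pair (red) and the IFNaR-/- pair (open circles); the dashed line is the median over all measured genes of the WT pair and the solid line is 0. In the monocyte/macrophage panel the interferon-stimulated list lies at -1.13 and MHC class II presentation at 0.95. MHC class II points in T cells stand for low levels, summing to 330.4 and 1614 CPM in CD8 T cells against 30161 and 71105 CPM in monocyte/macrophage cells.

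CD8 T cells of the anti-PD1 library carried more transcripts of checkpoint and costimulatory receptors and of chemokines, and fewer of the cell cycle and of several granzymes. The lineage held 584 untreated and 200 anti-PD1 cells, with a median of 9444 and 4532 UMIs. Of 8378 measured genes, 9.93% were higher and 9.89% lower, and the median log2 ratio was 0.04. Macrophage transcripts in these cells summed to 1455 CPM in the untreated and 2685 CPM in the anti-PD1 library, with 9 of 12 measured members higher, and their part in other values was not tested.

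Pdcd1 itself, the gene of the antibody's target, stood at 224 CPM (1423 UMIs) in untreated and 637 CPM (648 UMIs) in anti-PD1 CD8 T cells, which was 2.84-fold higher (95% interval 2.58 to 3.12). At 1000 UMIs per cell, 18% of 584 untreated and 40.2% of 199 anti-PD1 CD8 T cells had a Pdcd1 UMI, and the shares without thinning were 69.3% and 71.5%. The background in monocyte/macrophage cells was 0.214% and 0.0726% thinned. The library with anti-PD1 was thus the higher in level and in thinned share, and both lay far above the background. In the IFNaR-/- pair Pdcd1 was at 262 and 531 CPM.

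Of 22 measured exhaustion and checkpoint genes, 8 were higher and 2 lower, with a median of 0.62. Ctla4, a checkpoint receptor that competes for costimulatory ligands, went from 206 to 662 CPM. Tox, a transcription factor of chronically stimulated T cells, went from 25.7 to 289 CPM, a log2 ratio of 3.49 that was 2.80 after adjustment for intron length. Batf, a transcription factor of activated T cells, was at 44.6 and 132 CPM, and Cxcr6, a chemokine receptor of tissue T cells, at 333 and 789.9 CPM. The coinhibitory receptors Lag3 and Havcr2 (TIM-3) differed less than 2-fold, at 335 and 578 CPM and at 171 and 162 CPM. Cd200, an inhibitory ligand, was among the lower members at 41.3 and 13.8 CPM.

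Costimulatory receptors showed 5 of 11 members higher and 0 lower (median 0.78). Icos was at 174 CPM in the untreated and 492 CPM in the anti-PD1 library, 2.82-fold higher (95% interval 2.54 to 3.14), and Cd27 at 75.2 and 182 CPM, 2.42-fold higher (95% interval 2.03 to 2.87). The naive and memory list was mixed, with 4 of 19 higher and 2 lower. Tcf7, the factor that marks stem-like CD8 T cells, lay at 23 and 21.6 CPM, with an interval of the fold that included 1. Bach2, a repressor of terminal differentiation, was at 6.14 and 80.6 CPM (log2 ratio 3.70, and 3.01 adjusted for intron length). Myb, a factor of stem-like and cycling T cells, was at 19.5 and 3.93 CPM.

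The cytotoxic list split by family, with 7 of 25 members higher and 6 lower. The chemokines of killer cells were higher: Ccl5 stood at 2060.4 CPM in the untreated and 15521 CPM in the anti-PD1 library, 7.53-fold higher (95% interval 7.36 to 7.71). Ccl4 was at 983 and 2987 CPM, 3.04-fold higher (95% interval 2.91 to 3.17). Nkg7, which aids granule release, was at 2253 and 5027 CPM, and Prf1, the pore-forming perforin, at 189.5 and 354 CPM. All 6 lower members were granzymes, the serine proteases of the granules, and Gzmc to Gzmg are close paralogs whose single values are uncertain. Gzma was at 6640.2 and 2638 CPM, 2.52-fold lower (95% interval 2.42 to 2.62), and Gzmf at 1974 and 845 CPM. Gzmg had 512 UMIs in the untreated library and 0 in the anti-PD1 library, at least 27.4-fold lower against a floor of 3 counts, and Gzmd had 508 and 1 UMI. Gzmb differed by 1.24-fold (3018 and 2443 CPM). Gzmk, the granzyme of memory-like CD8 T cells, was the exception at 90.9 and 272 CPM, 2.99-fold higher (95% interval 2.58 to 3.46). Ifng, the gene of interferon gamma, was at 477 and 551 CPM, with 29.1% of its anti-PD1 UMIs in 1 cell. Single cells also held 20.6% of the Gzma and 43.0% of the Gzmf UMIs of that library. In IFNaR-/- mice Gzma stood at 6335 and 329 CPM and Gzmb at 2464 and 376 CPM.

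In the cell cycle list 41 of 48 measured members were lower and 0 higher, with a median of -1.71. Mki67, the proliferation marker Ki-67, stood at 201 CPM in the untreated and 35.4 CPM in the anti-PD1 library, 5.69-fold lower (95% interval 4.09 to 8.17), and Top2a, a topoisomerase of dividing cells, at 247 and 59.9 CPM. Bub1, a mitotic checkpoint kinase, and Cdc6, which licenses replication, had 109 and 101 UMIs in the untreated library and 1 UMI each in the anti-PD1 library. Thinned to 1000 UMIs, 10.6% of untreated and 2.01% of anti-PD1 CD8 T cells had an Mki67 UMI, against 31.3% and 10% unthinned. The cell cycle median of the IFNaR-/- pair was -1.57.

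Interferon-stimulated genes in CD8 T cells were level or higher, with 6 of 38 measured members higher and 0 lower, a median of 0.39. Isg15, a ubiquitin-like antiviral protein, was at 154 and 318 CPM, 2.07-fold higher (95% interval 1.82 to 2.34), and Rtp4 at 41.4 and 111 CPM. The MHC class I genes H2-D1 (2060.1 and 4164 CPM) and H2-T23 (382 and 791 CPM) were the members of the class I presentation list that passed 2-fold, of 20 (median 0.60). Outside the lists, Klra5, an inhibitory receptor of the Ly49 family, stood at 139 and 30.5 CPM, and Phlda1 at 233 and 30.5 CPM, both lower in the anti-PD1 library.

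**Figure D3:**
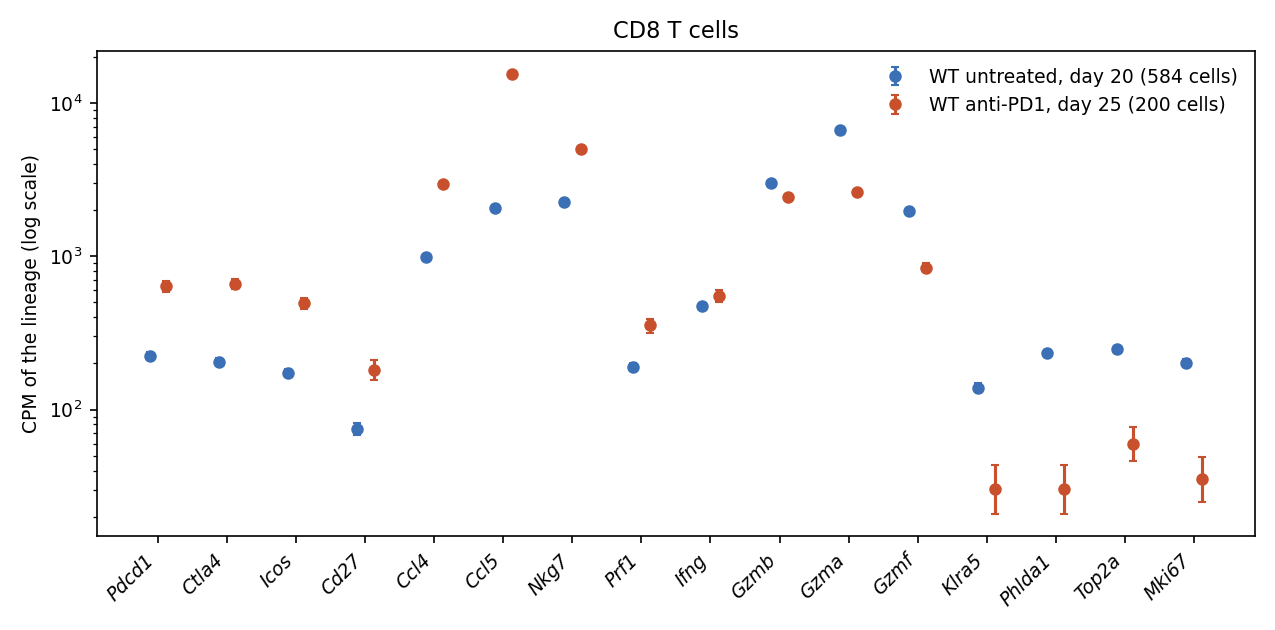
Summed level of 16 genes in CD8 T cells (y axis, CPM of the lineage, log scale) in the untreated (blue, 584 cells) and anti-PD1 (red, 200 cells) WT libraries; points are 1 library each and bars are exact 95% Poisson intervals. Receptors and chemokines on the left are higher in the anti-PD1 library (Pdcd1 224 and 637 CPM), and Top2a and Mki67 on the right are lower (Mki67 201 and 35.4 CPM).

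Conventional CD4 T cells (302 and 114 cells) also had lower cell cycle genes in the anti-PD1 library, and the median of their interferon-stimulated genes was near 0. Of 6386 measured genes, 8.58% were higher and 9.02% lower, and the median log2 ratio was 0.03. Pdcd1 stood at 263 CPM in the untreated and 479 CPM in the anti-PD1 library, 1.82-fold higher (95% interval 1.57 to 2.11) and so under 2-fold. Cell cycle genes had 19 of 35 members lower and 0 higher (median -1.37), with Kif11, a spindle motor, at 99 and 1 UMI and Top2a at 135 and 12.9 CPM. The interferon-stimulated median was -0.03, with 3 of 36 higher and 1 lower: Rtp4 was at 33.0 and 81.4 CPM and Oasl2, of the oligoadenylate synthetase family, at 23.1 and 9.25 CPM. The exhaustion and checkpoint median was 0.04.

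T helper cytokines and factors in CD4 T cells had 7 of 19 members higher and 2 lower (median 0.35). Cd40lg, the CD40 ligand by which helper cells license antigen-presenting cells, was at 71.8 CPM in the untreated and 152 CPM in the anti-PD1 library, 2.11-fold higher (95% interval 1.60 to 2.76). Areg, the growth factor amphiregulin, was at 43.8 and 189 CPM, 4.31-fold higher (95% interval 3.25 to 5.71). In the naive and memory list, Cxcr3, the receptor for the interferon-induced chemokines, was at 37.2 and 94.3 CPM. Outside the lists, Tnfsf11 (RANKL), a cytokine of the TNF family, was at 139 and 431 CPM. The lower members of the T helper list were Il10, an immunosuppressive cytokine, at 63.6 and 18.5 CPM (154 and 10 UMIs), and Lta, lymphotoxin alpha, at 78.9 and 31.4 CPM. Il10 went the other way in IFNaR-/- mice, 35.5 and 188 CPM, and this difference between pairs was not tested. Il2, the T cell growth factor and a higher member of that list, went from 8.26 to 104 CPM, but 1 anti-PD1 cell held 73.2% of its UMIs there. In the cytotoxic list, 1 anti-PD1 cell held 71.7% of the UMIs of Gzme (21.9 and 170.2 CPM).

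Regulatory T cells were few, 104 untreated and 45 anti-PD1 cells, the latter under the 50 cells that other gates needed, so their values are a description of those cells. Of 3761 measured genes, 8.93% were higher and 11.0% lower (median log2 ratio -0.01). In their own gene list, 9 of 25 members were higher and 1 lower, with a median of 0.79. The TNF receptors of activated regulatory T cells, Tnfrsf4 (OX40) and Tnfrsf9 (4-1BB), stood at 1119.6 and 873 CPM in the untreated and at 3274 and 2386 CPM in the anti-PD1 library. Tnfrsf4 was 2.92-fold higher (95% interval 2.67 to 3.20) and Tnfrsf9 2.73-fold higher (95% interval 2.46 to 3.04). Entpd1 (CD39), which degrades extracellular ATP, was at 116 and 413 CPM. Areg was at 130.3 and 2441 CPM, with 28.9% of the anti-PD1 UMIs in 1 cell. Foxp3, which the gate used, was at 431 and 478 CPM, and Gata3, a transcription factor of tissue regulatory T cells, was the lower member at 135 and 50.7 CPM. Pdcd1 was at 57.8 and 145 CPM, 2.51-fold higher (95% interval 1.61 to 3.87).

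The cell cycle median of regulatory T cells was near that of all genes, 0.04 with 2 of 30 higher and 5 lower, and whether it differs from the other lineages was not tested. The interferon-stimulated list had 5 of 28 higher and 0 lower (median 0.41). Outside the lists, Ddit4, a stress-induced inhibitor of mTOR signalling, was at 170.0 and 1601 CPM, and Odc1, the first enzyme of polyamine synthesis, at 1040.2 and 3867 CPM. Myb, a lower member of the naive and memory list, was at 177 and 21.7 CPM.

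Monocyte/macrophage cells carried fewer interferon-stimulated and monocyte transcripts in the anti-PD1 library and more transcripts for class II antigen presentation, complement and glycolysis. Of 11157 measured genes, 9.48% were higher and 16.5% lower, with a median log2 ratio of -0.18. With edgeR TMM or DESeq2 scaling all log2 ratios of this lineage shift up by 0.18, and 1344 genes are then higher and 1392 lower under TMM, in place of 1058 and 1845. T cell transcripts in these cells summed to 104 and 8.40 CPM and dendritic transcripts to 256 and 62.5 CPM.

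Of 46 measured interferon-stimulated genes, 25 were lower and 0 higher in the anti-PD1 library, a median of -1.13. Interferon-stimulated genes are commonly controlled through the interferon-stimulated response element, a short promoter motif. Its core, GAAA and GAAA with any 2 bases between them, on either strand, was found in 21 of the 38 list members with a RefSeq promoter (55.3%), and in 3.99% of all 27025 promoters of the same length, 250 bases before to 50 after the start. It was found in 14 of 21 of those that were lower and in 7 of 16 that were not. The 200 bases before the start of 4 members that span the range of the list are shown 5′ to 3′ on the gene's strand (RefSeq, GRCm38.p6), with matches in capitals. Ifit1 and Rsad2 were among the lower genes, and Isg15 and Bst2 were not. A match is a description of letters and not a binding site.
Ifit1, chr19:34640689-34640888, plus strand: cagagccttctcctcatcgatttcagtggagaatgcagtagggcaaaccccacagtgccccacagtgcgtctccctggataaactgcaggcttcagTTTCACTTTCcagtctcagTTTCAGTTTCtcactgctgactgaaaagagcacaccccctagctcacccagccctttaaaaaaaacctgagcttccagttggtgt
Rsad2, chr12:26456453-26456652, minus strand: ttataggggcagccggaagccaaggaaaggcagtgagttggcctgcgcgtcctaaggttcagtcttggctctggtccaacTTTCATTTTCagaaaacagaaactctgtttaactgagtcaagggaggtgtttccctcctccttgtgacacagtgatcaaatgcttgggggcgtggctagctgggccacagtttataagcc
Isg15, chr4:156200819-156201018, minus strand: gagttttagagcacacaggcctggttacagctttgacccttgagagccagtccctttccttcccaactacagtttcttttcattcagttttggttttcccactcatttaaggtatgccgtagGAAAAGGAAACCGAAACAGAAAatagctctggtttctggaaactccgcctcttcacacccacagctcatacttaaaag
Bst2, chr8:71537473-71537672, minus strand: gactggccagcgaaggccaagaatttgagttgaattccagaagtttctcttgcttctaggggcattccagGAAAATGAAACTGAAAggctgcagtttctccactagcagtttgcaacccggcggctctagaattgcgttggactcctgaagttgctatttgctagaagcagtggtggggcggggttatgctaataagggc

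Ifit1, which binds foreign RNA and has 2 matches, stood at 224 CPM in the untreated and 32.0 CPM in the anti-PD1 library, 7.00-fold lower (95% interval 6.53 to 7.50). Rsad2 (viperin), an antiviral enzyme with 1 match, was at 522 and 149 CPM, 3.51-fold lower (95% interval 3.38 to 3.64). Isg15, with 3 matches that overlap, was at 2072 and 1393 CPM, under 2-fold. Bst2 (tetherin), with 2 matches, was at 759 and 1115 CPM, the highest log2 ratio of the list (0.55). Promoters with the same core motif thus belonged to genes on both sides of 0. At 1000 UMIs per cell, 26.8% of untreated and 11.5% of anti-PD1 cells had an Rsad2 UMI, against 3.60% and 2.51% of CD8 T cells. Outside the lists, Ifi214, of the interferon-inducible p200 family, was at 34.8 and 2.67 CPM.

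The list was also counted on the monocyte and the macrophage side of the lineage. On the monocyte side, where 8.93% of 9489 genes were higher and 15.1% lower, 24 of 46 list members were lower. The list median there was -1.05, against -0.12 over all measured genes of that side. On the macrophage side, where 7.76% of 10490 genes were higher and 14.9% lower, 9 list members were lower. The list median there was -0.39, near the -0.24 over all measured genes of that side. Ifit1 was at 304 and 56.6 CPM on the monocyte side and at 71.3 and 24.0 CPM on the macrophage side. The difference between sides was not tested. The monocyte side made up 69.9% of the untreated and 29.6% of the anti-PD1 cells of the lineage. The part of this shift in the pooled values was not tested. In IFNaR-/- monocyte/macrophage cells the list started low, with Ifit1 at 5.77 CPM and Rsad2 at 33.9 CPM in the untreated library, and the median log2 ratio was -0.86. The IFN-gamma-linked list of the WT pair had a median of -0.50, with 3 of 29 higher and 2 lower.

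**Figure D4:**
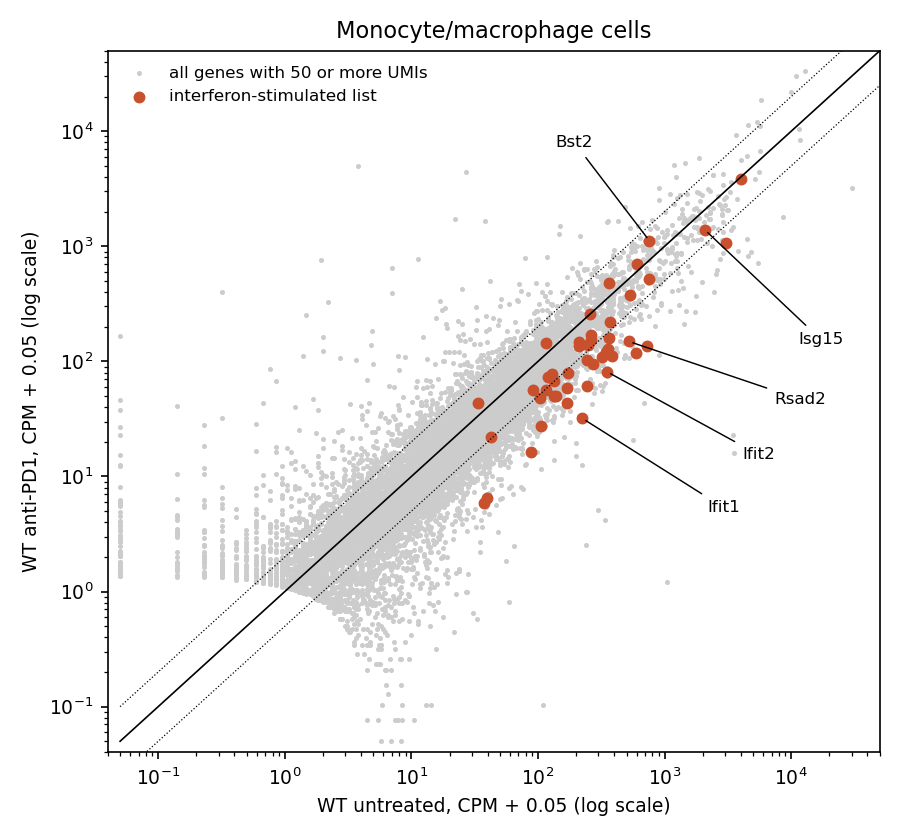
Summed level of each gene with at least 50 UMIs in monocyte/macrophage cells of the untreated (x axis) and anti-PD1 (y axis) WT libraries, in CPM on log scales with a small constant added so that 0 can be drawn; red points are the interferon-stimulated list, the solid line marks equality and the dotted lines a 2-fold difference. Of the 46 red points, 25 lie below the lower dotted line and none above the upper one, with Ifit1 (224 and 32.0 CPM) far below and Bst2 above the line of equality.

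Monocyte genes were lower, with 11 of 16 members lower and 0 higher (median -1.57). Part of this list served to split the sides, and the 13 members that did not had a median of -2.42. Vcan, a matrix proteoglycan of classical monocytes, stood at 64.1 CPM in the untreated and 2.43 CPM in the anti-PD1 library, 26.4-fold lower (95% interval 21.2 to 33.2). S100a4, a calcium-binding protein, was at 685 and 43.9 CPM, and Ccr2, the receptor by which monocytes enter tissue, at 385 and 107 CPM. Ly6c2 differed by 1.28-fold only (1514 and 1184 CPM). Complement genes had 6 of 14 members higher and 1 lower (median 0.86). C1qa, C1qb and C1qc of this list also served to split the sides. Without these, 3 of 11 members were higher and 1 lower, with a median of 0.65. Cfb, complement factor B, was at 79.5 and 797 CPM, 10.0-fold higher (95% interval 9.38 to 10.7). The split gene C1qa was at 1237 and 3975 CPM.

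MHC class II genes, which present antigen to CD4 T cells, had 6 of 13 members higher and 1 lower (median 0.95, and 0.29 in the IFNaR-/- pair). Cd74, the invariant chain, stood at 10883 CPM in the untreated and 30236 CPM in the anti-PD1 library, 2.78-fold higher (95% interval 2.76 to 2.79), and H2-Aa, a class II alpha chain, at 4578 and 11394 CPM. Cd86, a costimulatory ligand, was at 232 and 620.3 CPM. Ciita, the master activator of class II genes, was the lower member at 183 and 63.9 CPM. Of the PD-1 ligands, Pdcd1lg2 was at least 2-fold higher and Cd274 was not. Cd274 was at 261 and 481 CPM, 1.84-fold higher (95% interval 1.77 to 1.92), and Pdcd1lg2 at 35.2 and 113 CPM, 3.21-fold higher (95% interval 2.90 to 3.57). The IFNaR-/- pair had Cd274 at 165 and 233 CPM. At 1000 UMIs, 22.8% of untreated and 35.7% of anti-PD1 cells had a Cd274 UMI, and in CD8 T cells 5.82% and 7.54%. Among the 12 measured ligands that inhibit T cells, 4 were higher and 1 lower, the lower one being Cd276 (B7-H3) at 4.21 and 1.32 CPM. When the median log2 ratio of the same gene over the other 4 lineages was subtracted, the medians of the class II, complement and inflammatory lists turned to -0.61, -0.21 and -0.48, as many of these genes had larger ratios in other lineages.

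Inflammatory mediators and enzymes of macrophage activation were mixed. Of 20 inflammatory genes, 5 were higher and 3 lower (median 0.52). Nos2, the inducible nitric oxide synthase, stood at 18.4 CPM in the untreated and 289 CPM in the anti-PD1 library, 15.8-fold higher (95% interval 13.7 to 18.2). It had a UMI in 1.50% and 18.5% of cells thinned to 1000 UMIs, and in 0% and 1.01% of CD8 T cells. Il1b, the cytokine interleukin-1 beta, was at 1869 and 5864 CPM, and Il1a at 58.5 and 315 CPM, 5.39-fold higher (95% interval 4.98 to 5.84). Arg1, arginase, which uses up the substrate of Nos2, was higher as well, at 357 and 1663 CPM, 4.66-fold higher (95% interval 4.52 to 4.82). Chil3 (Ym1), usually grouped with Arg1, was lower at 234 and 32.8 CPM, and the suppressive and wound-type list as a whole had 6 of 20 higher and 5 lower. Saa3, an acute-phase protein, was at 49.6 and 303 CPM.

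Among myeloid chemokines, 6 of 19 were higher and 2 lower. Ccl8 was at 118 CPM in the untreated and 802 CPM in the anti-PD1 library, Ccl5 at 1178 and 5049 CPM, and Ccl24 at 328 and 60.5 CPM. Cxcl9, which draws T cells through Cxcr3, was at 1356 and 866 CPM. In the IFNaR-/- pair Ccl8 stood at 116 and 7240.3 CPM.

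Metabolic lists did not all stand alike. Glycolysis and hypoxia genes had 9 of 24 members higher and 0 lower (median 0.68). The glucose transporter Slc2a1 was at 102 and 314 CPM, and Vegfa, the angiogenic factor that hypoxia induces, at 229.8 and 639 CPM. Oxidative phosphorylation genes had a median of -0.29, near the -0.18 of all measured genes. Of 35 such genes 1 was higher and 3 were lower, against 9.48% and 16.5% of all genes, so no direction is read. Lipid and cholesterol genes had 9 of 25 lower and 4 higher: Sqle, an enzyme of cholesterol synthesis, was at 13.5 and 3.72 CPM, while Apoe, the lipid carrier, was at 5767 and 18735 CPM.

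Microglia of the anti-PD1 library carried fewer transcripts of their resting-state genes and more of the genes that mark disease-associated microglia, class II presentation and inflammation. The lineage held 375 and 1471 cells, with median UMIs of 7403 and 12035. Of 10435 measured genes, 7.51% were higher and 21.1% lower (784 and 2200 genes), and the median log2 ratio was -0.33. With TMM scaling all log2 ratios of this lineage shift up by 0.33 and the counts become 1264 higher and 1253 lower, so values are best read against the median. Macrophage transcripts, many of which microglia also express, summed to 63595 and 105259.8 CPM. The monocyte gene Ly6c2 was at 127 and 272 CPM in these cells, and the part of macrophages that passed the gate was not tested.

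None of the 25 homeostatic genes was higher in microglia and 18 were lower, with a median of -1.26 in WT and -0.51 in the IFNaR-/- pair. Without the 6 members that the gates used, 13 of 19 were lower, with a median of -1.27. A gate of at least 5 microglial UMIs kept 288 untreated (76.8%) and 712 anti-PD1 cells (48.4%). Under it the median of the whole list was -0.90. Of the microglial gene ratios checked under this gate, 22 moved outside their 95% interval and 11 did not. Among the list medians of microglia, 3 moved in the same sense and 7 did not. Macrophage transcripts summed to 69879 and 113490 CPM under this stricter gate. The microglial values that follow are those of the wider gate. Cx3cr1, the fractalkine receptor, stood at 1821 CPM in the untreated and 475 CPM in the anti-PD1 library, 3.83-fold lower (95% interval 3.71 to 3.96). Siglech, a sialic acid receptor, was at 477 and 113 CPM, and Slc2a5, a fructose transporter, at 84.4 and 15.7 CPM. Of the gate genes, P2ry12, the purine receptor of surveying microglia, was at 515 and 216 CPM, Tmem119 at 629 and 266 CPM, and Sall1, the transcription factor of microglial identity, at 136 and 47.3 CPM.

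Of 26 disease-associated genes, 9 were higher and 0 lower, a median of 0.52 (0.60 in the IFNaR-/- pair). Spp1, osteopontin, stood at 136 CPM in the untreated and 964 CPM in the anti-PD1 library, 7.08-fold higher (95% interval 6.46 to 7.77). Gpnmb, a lysosomal glycoprotein of phagocytes, was at 75.4 and 507 CPM, 6.72-fold higher (95% interval 5.94 to 7.63), and Apoe at 10789 and 39515 CPM. The WT log2 ratio lay below the IFNaR-/- one in 22 of 25 homeostatic and 13 of 26 disease-associated genes, as the plot of both lists shows. Neither this count nor the list medians of the pairs take out each pair's median over all genes. The pairs were not tested against each other.

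MHC class II presentation had 8 of 13 members higher and 0 lower in microglia (median 1.15 in WT, -0.14 in the IFNaR-/- pair). H2-Aa was at 3649.5 CPM in the untreated and 9637 CPM in the anti-PD1 library, 2.64-fold higher (95% interval 2.59 to 2.69), against 3979 and 4297 CPM in IFNaR-/- mice. Cd274 stood at 128 and 311 CPM, 2.44-fold higher (95% interval 2.22 to 2.70), and 7.28% and 22.7% of cells thinned to 1000 UMIs had a UMI of it. Pdcd1lg2 was at 18.3 and 49.1 CPM. With the other lineages subtracted in the same way, the class II and disease-associated medians of microglia turned to -0.36 and -0.32.

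The acute-phase and antimicrobial list had 8 of 12 members higher and 0 lower in microglia (median 1.47), with Saa3 at 26.4 and 273 CPM and Cfb at 65.5 and 479 CPM, 7.31-fold higher (95% interval 6.40 to 8.37). In IFNaR-/- microglia Cfb was at 15.0 and 17.3 CPM. Inflammatory genes had 7 of 18 higher and 1 lower, among them Il1b (531 and 2358 CPM) and Nos2 (9 and 1884 UMIs, 2.61 and 97.6 CPM). Ccl5 was at 481 and 3746 CPM, 7.79-fold higher (95% interval 7.42 to 8.19). Glycolysis and hypoxia genes had 9 of 24 higher and 2 lower. Egln3, an oxygen sensor, was at 6.38 and 47.4 CPM. The lower ones were Pdk1, a kinase that inhibits pyruvate dehydrogenase, at 85.5 and 21.6 CPM, and the hexokinase Hk2 at 365 and 128 CPM. Cell cycle genes had 26 of 44 lower and 0 higher (median -1.15), with Cenpf, a centromere protein, at 29.9 and 3.37 CPM.

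Interferon-stimulated genes in microglia had 13 of 45 members lower and 0 higher, but their median of -0.30 lay next to that of all genes (-0.33) and turned to 0.03 with TMM or DESeq2 scaling. Ifit1 was at 52.8 and 16.5 CPM and Oas2 at 73.0 and 19.2 CPM. Outside the lists, Adamts1, a matrix protease, stood at 176 and 16.2 CPM and Adrb1, the beta-1 adrenergic receptor, at 46.4 and 3.68 CPM.

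Some genes differed by a large factor in several lineages at once. Hspa1a and Hspa1b, the inducible HSP70 chaperones, were lower in all 5 lineages of the WT pair. Hspa1b stood at 2699 CPM in untreated and 108 CPM in anti-PD1 CD8 T cells, at 2244 and 65.2 CPM in regulatory T cells, at 2359 and 73.6 CPM in microglia and at 3561 and 16.1 CPM in monocyte/macrophage cells. The IFNaR-/- pair had 4167 and 66.5 CPM in the last of these. The 2 copies are nearly identical, so their single values are uncertain. Tigit, a coinhibitory receptor, was at 5.51 and 409.7 CPM in CD8 T cells, 12.4 and 503 CPM in CD4 T cells and 19.3 and 1159 CPM in regulatory T cells, and at 4.71 and 162 CPM in IFNaR-/- CD8 T cells. Apoc2, an apolipoprotein, had 0 UMIs in untreated and 5960 in anti-PD1 microglia, at least 355-fold higher against the floor of 3 counts. Il31ra, a cytokine receptor, had 0 UMIs in untreated and 890 in anti-PD1 CD8 T cells, and Lepr, the leptin receptor, 1221 and 2 UMIs in monocyte/macrophage cells. In the IFNaR-/- pair their log2 ratios were 9.75, 12.19 and -8.87, and the gene models of the libraries, which came from different versions of the counting software, cannot be told apart from treatment there. The same limit holds for Tigit, which is also counted among the higher exhaustion and checkpoint members of CD8 T cells.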

How the data were processed

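The study measured 4 single-cell libraries of sorted CD45.2+ cells, and the comparison uses the 2 WT libraries. The values are raw UMI counts per gene and cell barcode as deposited, written by Cell Ranger 3.1.0 for the untreated and 7.2.0 for the anti-PD1 library per the file headers, on builds mm10 and GRCm38 per the submitters' processing notes. Whether intronic reads were counted, and how cells were called, is not given in the sources used here.

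Genes in the feature files of all libraries were kept (30406 genes). Lineages were gated on raw UMIs (T cells at least 2 of Cd3d, Cd3e and Cd3g; myeloid cells at least 3 of Csf1r, Cd68, Fcgr1 and Adgre1; microglia at least 2 of P2ry12, Tmem119, Sall1, Gpr34 and Crybb1), and UMIs were summed per library and lineage and scaled to 1000000 per lineage (CPM). Log2 ratios used 0.5 added counts, folds exact conditional intervals for 2 Poisson counts, and shares exact Clopper-Pearson intervals, all at 95%. A gene was measured with at least 50 UMIs in the pair and called at 2-fold. With 1 library per group there is no test. Cells positive for T and myeloid gates were set aside as mixed. Scrublet's own threshold called 1 cell per library and so had not worked; removing its highest scores instead (355 and 727 cells) was an alternative. The alternatives were other cell filters, gates, scaling (edgeR 4.0.16 TMM, DESeq2 1.42.0 size factors), UMI minima, thinning, equal cell weights, subtraction of free RNA, of intron-length bins and of the other lineages; a stricter microglia gate and T cells with no myeloid UMI were added after seeing the data. The ratio script was tested on simulated data.

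Members and gene lists were chosen with earlier results of these data known. The text names Pdcd1 and its ligands, the 2 highest and 2 lowest called members of each list, up to 4 genes each way outside the lists with at least 200 UMIs, and the gate markers, leaving some out for length. Beyond that rule, after their values were seen, it names in CD8 T cells Batf, Ctla4, Cxcr6, Gzma, Gzmb, Gzmf, Gzmk, Havcr2, Ifng, Isg15, Lag3, Mki67, Nkg7, Prf1, Tcf7 and Top2a, in microglia Apoe and Cx3cr1, and in monocyte/macrophage cells Apoe, Bst2, Cxcl9, H2-Aa, Il1b, Isg15, Rsad2 and Vegfa. Some genes that the rule names are not reported here. Promoters came from RefSeq (GRCm38.p6). Python 3.11.15, numpy 2.4.6, scipy 1.17.1, pandas 2.3.3, scanpy 1.11.5 and R 4.3.3 were used.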

Additional observations from a re-analysis of the deposited data

Results flagged for a closer look

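Among the gene ratios chosen for this text, 4 differed in direction between the WT and the IFNaR-/- pair, by 2-fold or more each way. The other measured genes were not searched for such differences. No test of the difference was made. In CD8 T cells the log2 ratio (anti-PD1/untreated) of Isg15 was 1.05 in WT and -1.02 in IFNaR-/- mice, from 154 to 318 and from 29.1 to 14.1 CPM. In CD4 T cells Il10, an anti-inflammatory cytokine, had -1.72 in WT and 2.39 in IFNaR-/- mice (63.6 and 18.5, 35.5 and 188 CPM). Gzme in CD4 T cells had 2.95 and -1.92, and 71.7% of its UMIs in the WT anti-PD1 library came from 1 cell. Wfdc17, a secreted protein of activated phagocytes, had -1.06 and 1.35 in monocyte/macrophage cells, with 829 and 398 CPM in WT.

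Outside the lineages compared, mixed T and myeloid cells were 3.86% of kept cells in the anti-PD1 and 2.62% in the untreated library. Whether they are doublets or joined cells was not tested.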

How the results depend on the processing

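Of 154 gene ratios, 116 were counted as turned in no setting tried, as were 32 of 46 list medians. A gene was counted as turned only where it was measured and its reported levels differed at least 2-fold. A list was counted only where the interval of its median did not include equal levels. Smaller ratios and medians could change sign without being counted, so these are not counts of kept direction. All 38 gene values that turned, and 13 of 16 list median values that turned, did so under subtraction of the other lineages. There the median log2 ratio of the same gene over the other lineages was subtracted, a setting that removes whatever the lineages share by construction.

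Counts of genes at least 2-fold apart moved with thinning, with the UMI minimum and, in microglia, with the scaling. With cells thinned to 1000 UMIs, there were 212 higher and 208 lower in CD8 T cells, 124 higher and 158 lower in CD4 T cells, 60 higher and 63 lower in regulatory T cells, 481 higher and 816 lower in microglia and 662 higher and 1027 lower in monocyte/macrophage cells. With a minimum of 10 UMIs in place of 50, there were 1543 higher and 1305 lower in CD8 T cells, 1370 higher and 1145 lower in CD4 T cells, 1054 higher and 1107 lower in regulatory T cells, 1214 higher and 3302 lower in microglia and 1683 higher and 2811 lower in monocyte/macrophage cells. With no minimum, there were 4313 higher and 1528 lower in CD8 T cells, 2978 higher and 1626 lower in CD4 T cells, 2413 higher and 1774 lower in regulatory T cells, 1492 higher and 5115 lower in microglia and 2524 higher and 4803 lower in monocyte/macrophage cells. TMM scaling gave 1264 higher and 1253 lower in microglia, DESeq2 size factors 1257 higher and 1260 lower in microglia and the adjustment for intron length 1218 higher and 1218 lower in microglia. The microglial interferon-stimulated median turned to 0.032, 0.030 and 0.12 under these 3. In the other lineages these 3 settings left the counts within 1.5 times, as did the cell filters, raised gates, removal of cells with high doublet scores, equal weight per cell and subtraction of free RNA in all 5.

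After subtraction of the other lineages, 279 genes were lower in CD8 T cells, 106 lower in CD4 T cells, 235 higher in microglia, 215 higher and 80 lower in regulatory T cells, and 550 higher and 1092 lower in monocyte/macrophage cells.

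In CD8 T cells the log2 values that turned were Pdcd1lg2 (-0.30), Gzma (3.64), Gzmf (4.18), Hspa1b (0.40), Myb (0.76), Cd200 (1.06) and the immediate early and heat shock list median (0.20). In CD4 T cells the log2 values that turned were Cd40lg (-1.03), Cxcr3 (-0.053), Gzmc (0.020), Tigit (-0.71) and the immediate early and heat shock list median (0.019). In regulatory T cells the log2 value that turned was Gata3 (0.91). In microglia the log2 values that turned were Siglech (0.26), Apoe (-0.96), Spp1 (-0.14), Il1b (-0.66), Cfb (-1.80), H2-Aa (-0.78), Cd74 (-1.10), the MHC class II presentation list median (-0.36), the disease-associated microglia list median (-0.32) and the inflammatory cytokines and mediators list median (-0.055). In monocyte/macrophage cells they were C1qa (-0.36), C1qb (-0.53), C1qc (-0.21), Cd74 (-1.01), H2-Aa (-0.86), Cd86 (-0.097), Nos2 (-1.17), Il1b (-1.16), Arg1 (-1.62), Spp1 (-0.87), Ear2 (4.31), Ccl8 (-0.053), Ccl5 (-0.30), Cfb (-1.11), Saa3 (-0.76), Slc2a1 (-0.055), Vegfa (-0.35), Apoc2 (-0.73), Apoe (-1.13) and Cd276 (1.09) for genes, and the MHC class I presentation list median (-0.043), the MHC class II presentation list median (-0.61), the inflammatory cytokines and mediators list median (-0.48), the acute-phase and antimicrobial list median (-1.15), the complement list median (-0.21), the cell cycle list median (0.56), the oxidative phosphorylation list median (0.12) and the Fc gamma receptors list median (-1.03).

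Shares depend on the gates and on depth. The difference in microglial share (anti-PD1 minus untreated, percentage points of gated cells other than T) was 9.59 as reported, 11.7 with at least 500 genes and at most 5% mitochondrial UMIs, 5.38 with each gate raised by 1 UMI and -4.77 with cells thinned to 1000 UMIs before gating, so it has no stable direction. For monocyte/macrophage cells it was 12.6, 18.1 with raised gates and 40.6 after thinning, and for CD8 T cells among T cells 0.00795 and -6.21 after thinning. The cause of these moves was not tested. No paired analysis was possible because each group has 1 library and the labels number no replicates. For the same reason no library could be left out, and depth limits what can be seen of genes with few UMIs, above all in regulatory T cells, of which the anti-PD1 library held 45.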
